A study of Glycine max with 4 samples.

Results

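The loci described here are annotated to protein families with members that make, trim or protect pectin. The annotation does not show what each protein does in the soybean leaf. The rule that chose the loci reads only their annotation, though it was set with earlier results of these data known. A locus was taken when its description held pectin, pectate, polygalacturonase, pectin acetylesterase or galacturonosyltransferase, and when it was a single annotated gene. The rule gave 225 of the 39505 loci of the table, and 4 merged loci with a matching description, each spanning several genes, were left out. They fell into 4 classes by their descriptions and Gene Ontology (GO) terms. Methylesterases and their inhibitors made up 71 loci, lyases and polygalacturonases 89, pectin acetylesterases 21 and galacturonosyltransferases 44.

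The study asked which transcripts change in soybean leaves shortly after inorganic phosphate (Pi) is withdrawn. Both groups were Glycine max var. Williams 82 seedlings, raised for 18 days in the same hydroponic solution (the labels put the leaves at 18 days after germination) and then moved for 24 h to a new one. Pi-sufficient leaves (PSL) came from plants at 500 µM KH2PO4 and Pi-deprived leaves (PDL) from plants at 0 µM KH2PO4. K2SO4 took the place of KH2PO4 in the Pi-deprived solution, so the supply of sulfate differed between the groups together with that of Pi. Each group had 2 libraries of paired-end RNA-seq reads (PDL-1 and PDL-2, PSL-1 and PSL-2), and each library held the first trifoliate leaves of 3 plants.

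Pectin is the galacturonate-rich polysaccharide that fills the primary wall of leaf cells and glues neighbouring cells together. Galacturonosyltransferases build its chains in the Golgi from UDP-galacturonate, and the chains are secreted in methylated and partly acetylated form. In the wall, methylesterases expose the acid groups, inhibitor proteins hold the methylesterases back, acetylesterases remove acetyl groups, and pectate lyases and polygalacturonases cut the bared chains.

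Values are FPKM (sequenced fragments scaled to transcript length and to the size of the library), so levels can be compared between loci. A locus was tested when its mean over the 4 libraries was at least 0.3 FPKM, and 148 of the 225 loci were (44 methylesterases and inhibitors, 49 lyases and polygalacturonases, 15 pectin acetylesterases and 40 galacturonosyltransferases). The other 77 had no mean above 0.299 FPKM and no single value above 0.977 FPKM. Differences are PDL minus PSL of log2(FPKM + 0.1), a scale that understates the change of low loci. Loci were called at a log2 difference of at least 1 in size and an unadjusted limma p of at most 0.05. Beside it p adjusted over all 32686 loci tested is given. The study used the same cutoffs with the program Cuffdiff, so the calls here are not its calls. With 2 libraries a group, every spread quoted is that of 2 pools of 3 plants, and an exact permutation test of a single locus could not go below p = 0.333.

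The libraries were alike in their middle range, with median FPKM of all loci tested between 6.07 and 6.10. Summed FPKM ranged from 1.66e+06 in PSL-1 to 2.01e+06 in PSL-2. Among loci of low value (above 0 and under 0.3 FPKM in both libraries of a group), FPKM steps with single reads. Over 2336 such loci the log2 ratio of PDL-1 to PDL-2 lay most often between 0.3 and 0.4. Over 2325 such loci that of PSL-1 to PSL-2 lay most often between -0.4 and -0.3. A read thus weighed more in PDL-1 and PSL-2 than in their partners. Marker lists for cell types, not all of them of the leaf, were summed as well. The mesophyll list (light-harvesting proteins and the small subunit of Rubisco) summed to 152983 and 155309 FPKM in PDL and to 120219 and 130729 FPKM in PSL. Of its 37 tested loci 0 were called and 36 were positive, with a median log2 difference of 0.29. In 34 of these 37 mesophyll loci both PDL libraries stood above both PSL libraries (91.9%, the same share being 20.2% of all loci). The xylem list summed to 74.9 and 38.4 FPKM in PDL and to 38.2 and 53.0 FPKM in PSL, with 1 of 24 tested loci called higher. The pollen list, in full Pollen Ole e 1 allergen and extensin family proteins, summed to 181 and 223 FPKM in PDL and to 173 and 131 FPKM in PSL, with 1 of 16 called higher, 14 positive and a median of 0.37. The root list summed to 359 and 312 FPKM in PDL and to 357 and 287 FPKM in PSL, with 0 of 4 called. The list for dividing cells was low and summed to 1.49 and 1.71 FPKM in PDL and to 0.940 and 0.700 FPKM in PSL, with its 1 tested locus (Gm11g084500, a cyclin B2;3) at a log2 difference of 1.38 and not called, and cyclin B1;1 and B1;3 at 0 in 3 of 4 libraries. The part of cell makeup in the results that follow was not tested, and in whole leaves fewer cells of a type and less RNA per cell cannot be told apart.

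Pectin-related loci were mostly higher in the Pi-deprived leaves, by small amounts. The log2 difference was positive for 105 of the 148 loci tested (70.9%, against 48.6% of all loci tested), with a median of 0.19 against -0.01. In 54 loci both PDL libraries stood above both PSL libraries (36.5%, against 20.2% of all loci), and in 7 both stood below (4.73%, against 21.1%). Few differences were large. By the thresholds 6 loci were called higher, against 1.14% of all loci tested, and 1 was called lower, against 0.887%. By p alone, with no fold threshold, 20 loci were higher (13.5%, against 4.64% of all loci) and 1 lower (0.676%, against 4.29%). The counts leaned on single libraries. Without PSL-1 there were 15 loci called higher and without PSL-2 there were 2, while calls over all loci rose from 373 to 792 and 591. Those called lower were 3 without PDL-1 and 2 without PSL-2, while calls over all loci rose from 290 to 683 and 535. A single locus, the pectin acetylesterase Gm07g131400, listed at 0 in both PSL libraries, had an adjusted p under 0.05.

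The medians were highest among well-expressed loci. Of the 36 with a mean of at least 10 FPKM, 32 had a positive difference and 22 had both PDL libraries above both PSL libraries (61.1%, against 23.9% of all loci at that level), with a median of 0.37 against 0.00. Of the 78 between 1 and 10 FPKM, 26 had both PDL libraries on top (33.3%, against 17.8%), with a median of 0.14 against -0.02. Of the 34 between 0.3 and 1 FPKM, 6 did (17.6%, against 18.5%), with a median of 0.21 against 0.01.

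Libraries within a group also differed in step at these loci. PSL-2 was the lowest of the 4 libraries in 48.6% of the pectin-related loci, against 23.2% of all loci, and PDL-2 was the highest in 39.9%, against 25.3%. The falling order PDL-2, PDL-1, PSL-1, PSL-2, singled out after the values were seen, held in 32 of 146 loci without ties (21.9%, against 5.89% of all loci). It held in 11 lyase-like loci, 6 methylesterases, 5 GAUT loci and 4 polygalacturonases. The median log2 SD between libraries of a group was 0.32 for pectin-related loci and 0.20 for all loci. Marker lists differed in these steps. Of the 16 tested loci of the pollen list, PSL-2 was the lowest in 12 and PDL-2 the highest in 10. PDL-2 was the highest in 78.4% of the 37 mesophyll loci, but PSL-1 was the lowest in 70.3% and PSL-2 in 27.0%. Of the 24 tested xylem loci, PDL-1 was the highest in 66.7% and PDL-2 in 0, and PDL-2 and PSL-2 were each the lowest in 41.7%. PDL-2 was the highest in 0 of the 4 tested root loci. The part of cell makeup in these steps was not tested. With PSL-2 left out, both PDL libraries stood above PSL-1 in 77 loci (52.0%, against 34.9% of all loci) and below it in 30 (20.3%, against 35.3%).

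**Figure D1:**
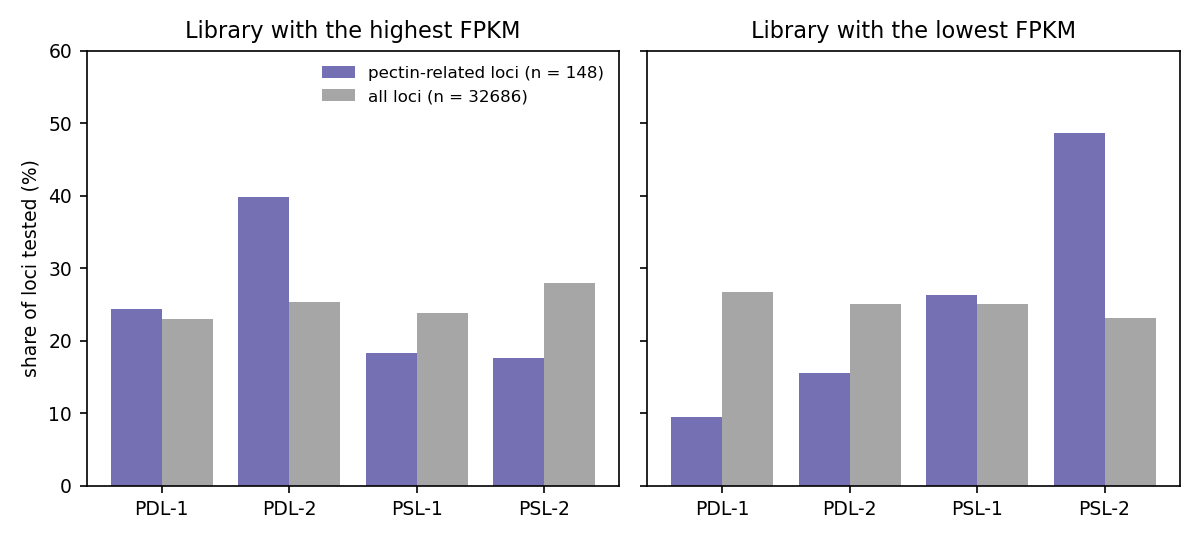
Share of loci tested (%) in which each library had the highest FPKM (left) or the lowest (right), for the 148 pectin-related loci and for all 32686 loci. PDL-2 was the highest in 39.9% of pectin-related loci and PSL-2 the lowest in 48.6%, while all loci were spread more evenly over the libraries.

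The synthesis class held 44 loci, 34 of the GAUT family and 10 of the GATL family. GAUT proteins are galacturonosyltransferases, of which GAUT1 of Arabidopsis makes homogalacturonan in a complex with GAUT7, and GATL proteins are shorter relatives. The class was expressed broadly, with 43 of 44 loci above 0 in all 4 libraries. Its summed FPKM was 602 and 600.5 in the PDL libraries and 494 and 499 in the PSL libraries, which put both Pi-deprived libraries 1.21 times above the Pi-sufficient mean. As a share of all FPKM of a library the class took 0.0311 and 0.0328% in PDL against 0.0297 and 0.0249% in PSL. On that scale PSL-1 lay nearer to PDL-1 than to PSL-2. None of the 40 loci tested was called. By p alone 4 were higher, and the median log2 difference was 0.14 for GAUT and 0.17 for GATL.

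The 2 highest GATL loci, both annotated as galacturonosyltransferase-like 7, showed even differences. Gm02g015300 (chr2:1356567-1360840, Gmax2.0) read 134.8 FPKM in PDL-1 and 134.9 FPKM in PDL-2, against 90.3 FPKM in PSL-1 and 89.6 FPKM in PSL-2. The libraries of each group all but coincided and the groups were far apart, at a log2 difference of 0.58 ± 0.09 (SE, limma's adjusted p = 0.470). Gm10g015900 (chr10:1401652-1407352) repeated this at a lower level, with 74.3 and 77.9 FPKM in PDL and 46.9 and 47.4 FPKM in PSL. Its log2 difference was 0.69 ± 0.10 (adjusted p = 0.438). Both differences exceeded the spread between libraries several times over and both stayed under the fold threshold. The other 2 GATL7 loci were lower in level and overlapped between groups. Gm03g217600 had 11.7 and 10.4 FPKM in PDL and 8.44 and 10.9 FPKM in PSL. The third GATL locus by level, Gm02g099900 (GATL3), read 24.5 and 26.0 FPKM in PDL and 24.5 and 15.2 FPKM in PSL, where a low PSL-2 made up the difference.

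Most GAUT loci differed little between the groups. The highest, Gm17g003900 (GAUT4, chr17:411570-415985), read 127 and 120.0 FPKM in PDL and 109.8 and 125 FPKM in PSL, so its groups overlapped. Gm07g269900, also GAUT4, had 49.0 and 48.2 FPKM in PDL and 41.1 and 44.5 FPKM in PSL, and Gm07g081600 (GAUT1) had 37.98 and 39.98 FPKM in PDL and 35.2 and 32.8 FPKM in PSL. In both the PDL libraries were on top by a small step, and neither passed the p threshold. The GAUT loci that passed the p threshold alone were of low level. Gm03g019700 (GAUT1) had 3.44 and 4.32 FPKM in PDL and 2.34 and 2.42 FPKM in PSL (log2 difference 0.68 ± 0.19, adjusted p = 0.526). Gm14g027400 (GAUT15) had 3.38 and 2.63 FPKM in PDL and 1.60 and 1.86 FPKM in PSL (0.75 ± 0.23, adjusted p = 0.528). The 4 loci of GAUT12, whose Arabidopsis counterpart serves xylan of secondary walls, were low, and the 2 of them that were tested had overlapping groups.

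**Figure D2:**
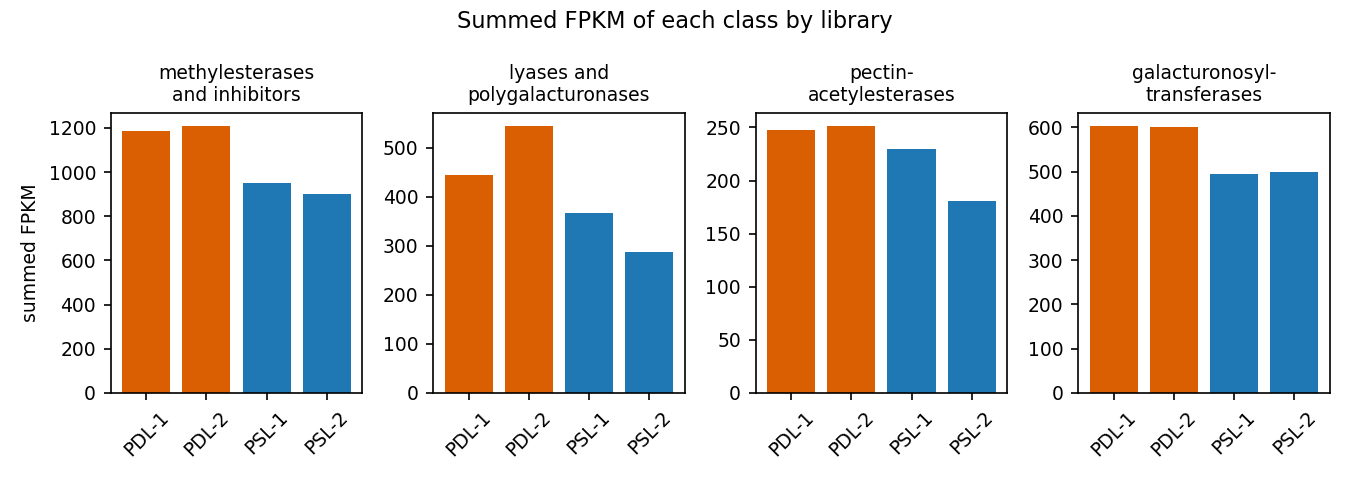
Summed FPKM of each class in each library (bars, axes from 0; orange PDL, blue PSL), 1 panel per class with its own scale. PSL-2 was lowest in 3 classes, and the galacturonosyltransferases had the smallest gap between libraries of a group (602 and 600.5 FPKM in PDL, 494 and 499 FPKM in PSL).

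Methylesterases numbered 44, known by the GO term pectinesterase activity whatever their description (some are described as pectin lyase-like), and 26 of them were tested. Many of these proteins carry an inhibitor domain in front of the enzyme. They leaned upward as a group, with 20 of 26 positive (76.9%, against 48.6% of all loci) and a median log2 difference of 0.26. Both PDL libraries stood above both PSL libraries in 11 (42.3%, against 20.2%) and below in 0 (against 21.1%). No methylesterase was called by the thresholds, and 3 passed by p alone. They were low in the leaf, with 5 loci at a mean of 10 FPKM or more and 17 at 0 in at least 1 library.

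The leading methylesterase of the leaf was Gm17g044500 (chr17:3312289-3315677), at 76.6 FPKM (PDL-1) and 52.4 FPKM (PDL-2) under Pi deprivation and 41.3 FPKM (PSL-1) and 38.0 FPKM (PSL-2) under Pi supply. PDL-1 stood out and the groups did not overlap, with a log2 difference of 0.68 ± 0.21 (adjusted p = 0.539). Next came Gm08g147900, with 25.1 and 27.4 FPKM in PDL and 26.0 and 18.3 FPKM in PSL, where the groups overlapped. Gm14g159600 had 29.3 and 25.9 FPKM in PDL and 22.7 and 15.9 FPKM in PSL, and it missed the p threshold. Its groups were separate, though PSL-1 and PSL-2 lay farther apart than PSL-1 and PDL-2.

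A pair of adjacent methylesterases on chromosome 13 can be set side by side. Gm13g115400 (chr13:22887014-22891410) read 14.8 and 16.6 FPKM in PDL and 11.5 and 9.64 FPKM in PSL (0.57 ± 0.15, adjusted p = 0.514). Gm13g115300, which ends 2488 bp before it, read 9.66 and 7.51 FPKM in PDL and 10.6 and 8.05 FPKM in PSL, with overlapping groups. The difference between the 2 loci was not tested. The third methylesterase past the p threshold was Gm09g077100, with 2.16 and 3.01 FPKM in PDL and 1.60 and 1.35 FPKM in PSL (0.76 ± 0.26, adjusted p = 0.551).

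The inhibitor branch held 26 loci of the plant invertase/pectin methylesterase inhibitor superfamily that carry the inhibitor term and no esterase term. The superfamily holds inhibitors of invertase and of pectin methylesterase, and the description does not say which of the enzymes a locus restrains. One further locus of this description had no GO term (Gm02g080000, with 0.311 FPKM and 0 in the PDL libraries and 0.229 FPKM and 0 in the PSL libraries) and was not tested. The 18 inhibitor loci tested had a median log2 difference of 0.09. Of these, 2 were called higher (against 1.14% of all loci) and 1 lower (against 0.887%). This was the only one of the 7 kinds of protein plotted by difference with calls in both directions.

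Inhibitors were the most abundant pectin-related transcripts of the leaf. Gm09g231900 (chr9:45525526-45526149) alone gave 45.9 to 53.1% of the summed FPKM of its class, at 544 FPKM (PDL-1) and 641 FPKM (PDL-2) under Pi deprivation and 489 FPKM (PSL-1) and 430.4 FPKM (PSL-2) under Pi supply. The groups were separate by less than the step between PDL-1 and PDL-2, with a log2 difference of 0.36 ± 0.14 that missed the p threshold. As a share of all FPKM of a library the locus took 0.0280 and 0.0350% in PDL and 0.0295 and 0.0214% in PSL. On that scale the groups overlapped, and after quantile normalization the log2 difference was 0.22. Gm08g043800 read 226 and 187 FPKM in PDL and 119 and 183 FPKM in PSL, where PSL-1 was far below the other 3 libraries. Gm12g004600 read 97.6 and 74.1 FPKM in PDL and 89.0 and 88.0 FPKM in PSL, and PDL-2 was the odd library. Without Gm09g231900 the class still summed higher in PDL, at 642 and 566 FPKM against 463 and 471 FPKM.

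Among the called inhibitors, Gm04g118700 (chr4:14123110-14123691) was the most abundant, at 27.6 FPKM (PDL-1) and 38.7 FPKM (PDL-2) under Pi deprivation and 18.7 FPKM (PSL-1) and 13.6 FPKM (PSL-2) under Pi supply. Both PDL libraries were above both PSL libraries, by 1.03 ± 0.25 on the log2 scale (adjusted p = 0.504). Without PDL-2 or without PSL-2 the difference was 0.79 or 0.80 and was not called, nor was it with a pseudocount of 1 (0.99). Gm03g103400 (chr3:29748816-29749379) had 3.65 and 2.78 FPKM in PDL and 1.53 FPKM in each PSL library. Its log2 difference was 1.01 ± 0.23 (adjusted p = 0.489), at the edge of the fold threshold, and it was not called with a pseudocount of 1 (0.73), without PDL-1 (0.82), without PSL-1 or without PSL-2 (1.01 in both, past the fold threshold only).

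The inhibitor that fell was Gm17g151200 (chr17:12606687-12607238). It read 0.565 FPKM in PDL-1 and 0.692 FPKM in PDL-2, against 2.27 FPKM in PSL-1 and 2.21 FPKM in PSL-2. The libraries of each group were close and the groups well apart, with a log2 difference of -1.69 ± 0.27 (adjusted p = 0.470). It was the 1 pectin-related locus called lower, and it was called in every fit that left out a library. Its level was low, and with a pseudocount of 1 its difference of -0.99 missed the fold threshold. A second inhibitor nearby, Gm17g151500, begins 18584 bp away and read 2.59 FPKM in PDL-1, 0 in PDL-2 and 0.174 and 0.232 FPKM in the PSL libraries, a pattern set by PDL-1 alone.

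**Figure D3:**
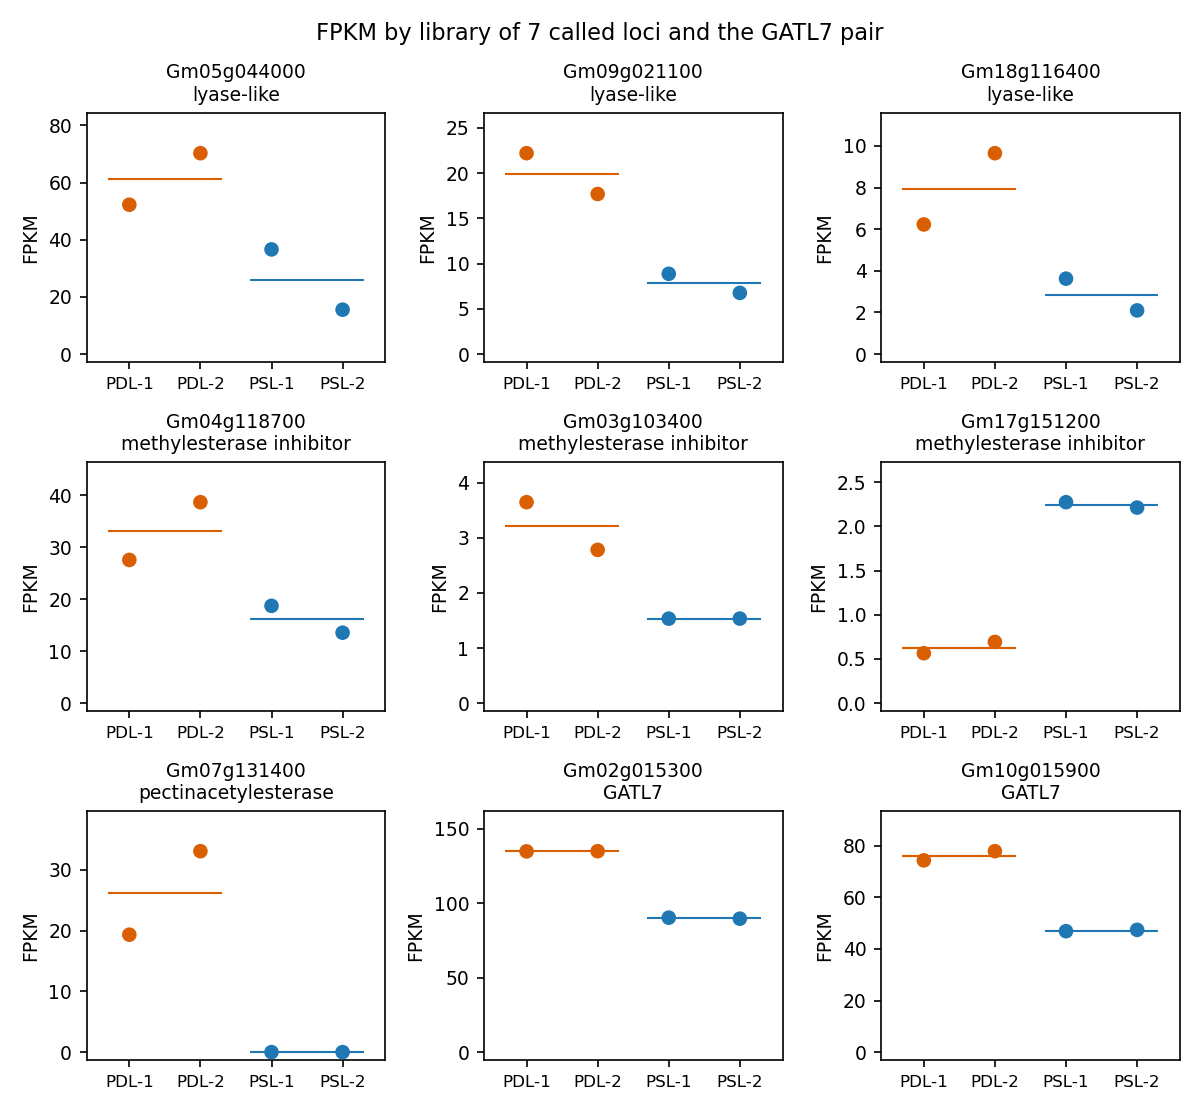
FPKM of the 7 called loci and of the GATL7 pair in each library (points; lines are group means; orange PDL, blue PSL), 1 panel per locus with its own scale from 0. In every panel the groups do not overlap, Gm17g151200 is the one lower in PDL, and Gm07g131400 is listed at 0 in both PSL libraries.

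Lyase-like loci were the largest kind, and 3 of the 7 calls fell among them. The 60 loci described as pectin lyase-like without a GO term share the parallel beta-helix fold of pectate lyases, polygalacturonases and methylesterases, and the description does not name the reaction. Of these, 38 were tested, 29 had a positive difference, and the median was 0.40. In 15 both PDL libraries stood above both PSL libraries (39.5%, against 20.2% of all loci) and in 0 both stood below (against 21.1%). By the thresholds 3 were called higher (against 1.14% of all loci) and 0 lower (against 0.887%). By p alone 7 were higher (against 4.64%).

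Gm09g021100 (chr9:1663321-1674172) had the smallest standard error of the loci called higher. It read 22.2 FPKM (PDL-1) and 17.7 FPKM (PDL-2) under Pi deprivation and 8.87 FPKM (PSL-1) and 6.76 FPKM (PSL-2) under Pi supply. The lowest PDL value was well above the highest PSL value, and the log2 difference was 1.34 ± 0.21, or 2.54-fold (adjusted p = 0.470). It was called in all 14 fits, the 4 that leave out a library included, with log2 differences from 1.15 to 1.54.

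Gm05g044000 (chr5:3924063-3926019) was higher in level and less even. It read 52.3 and 70.3 FPKM in PDL, 36.6 FPKM in PSL-1 and 15.6 FPKM in PSL-2. The groups did not overlap, but PSL-2 lay farther below PSL-1 than PSL-1 below PDL-1, so 1 library carried much of the log2 difference of 1.34 ± 0.46 (adjusted p = 0.546). Without PSL-2 it was 0.72 and was not called, nor was it called without PDL-1 (1.55) or without PDL-2 (1.13), after quantile normalization (1.32) or without the mean-variance trend. Gm17g126500 (chr17:10079191-10080916) followed the same order of libraries, with 19.9 and 30.0 FPKM in PDL, 16.1 FPKM in PSL-1 and 5.69 FPKM in PSL-2. At 1.34 ± 0.56 its difference was as large and its p missed the threshold. It is named, with Gm07g244200, as a value just outside the thresholds.

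Gm18g116400 (chr18:14247645-14253004) had the largest log2 difference of the lyase-like loci called, 1.46 ± 0.36 (adjusted p = 0.511). It read 6.23 and 9.65 FPKM in PDL and 3.62 and 2.10 FPKM in PSL. The groups were separate, with a wide step inside each, and it was not called without PDL-2 (1.14) or without PSL-2 (1.08). Gm07g244200 fell just short of the fold threshold at 0.99 ± 0.19 (adjusted p = 0.471). Its values were 5.72 and 5.19 FPKM in PDL and 3.03 and 2.41 FPKM in PSL, with more room between the groups than within them.

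The most abundant lyase-like locus was Gm15g127500 (chr15:10122871-10128789), at 126 FPKM (PDL-1) and 137 FPKM (PDL-2) under Pi deprivation and 94.3 FPKM (PSL-1) and 92.0 FPKM (PSL-2) under Pi supply. It was higher in PDL by a modest and even step, with a log2 difference of 0.50 ± 0.10 (adjusted p = 0.473). Gm08g017300 read 35.4 and 52.7 FPKM in PDL and 42.1 and 29.1 FPKM in PSL, and its groups overlapped.

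Loci annotated outright as pectate lyases were barely detected. Their enzymes cut demethylated pectin with the help of calcium. Gm11g244900 had 0.152 and 0.306 FPKM in PDL, 0.117 FPKM in PSL-1 and 0 in PSL-2, and Gm18g012200 and Gm11g244800 were lower still. None of the 3 was tested. KEGG (a pathway database) put 17 lyase-like or pectate lyase loci in pentose and glucuronate interconversions only, which does not name the reaction. Of the 11 tested, 10 were positive (90.9%, against 48.6% of all loci), with a median of 0.67. Of these 1 was called higher (against 1.14%) and 0 lower (against 0.887%). In 7 both PDL libraries stood above both PSL libraries (63.6%, against 20.2%) and in 0 below (against 21.1%).

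Polygalacturonases, which cut pectin by hydrolysis, numbered 21 by GO term or description, and 10 were tested. None was called, and 7 had a positive difference (70%, against 48.6% of all loci). The log2 differences ran from -1.49 to 2.16, with a median of 0.29. In 6 both PDL libraries stood above both PSL libraries (60%, against 20.2% of all loci) and in 0 both stood below (against 21.1%). The most abundant, Gm02g034700 (polygalacturonase 2, chr2:3211152-3213145), read 31.5 and 41.8 FPKM in PDL and 24.8 and 17.6 FPKM in PSL. The groups were separate, at a log2 difference of 0.79 ± 0.24 (adjusted p = 0.528). Gm01g030900, of the same description, read 14.9 and 22.9 FPKM in PDL and 12.7 and 8.11 FPKM in PSL, again with PDL-2 on top and PSL-2 at the bottom (0.86 ± 0.32, adjusted p = 0.564, past neither threshold).

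Lower in level, the polygalacturonases were erratic. Gm18g139900 is listed as 2 loci with the same coordinates (chr18:21123339-21128522), at 4.34 and 5.65 FPKM in PDL and 3.47 and 4.06 FPKM in PSL for one, and at 0.468 and 1.73 FPKM in PDL and 2.10 and 0.695 FPKM in PSL for the other. How reads were shared between them is uncertain. Gm08g285400 had the widest difference of the tested polygalacturonases, 2.16 ± 0.88, from 1.84 and 5.71 FPKM in PDL and 1.34 and 0.289 FPKM in PSL. Its groups did not overlap, but on the log2 scale the steps within the groups were near the size of the step between them, and it missed the p threshold.

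The 5 polygalacturonase-inhibiting proteins, leucine-rich repeat proteins best known for binding fungal polygalacturonases, were very low. Only Gm08g079100 was tested, at 1.09 FPKM (PDL-1) and 0.248 FPKM (PDL-2) under Pi deprivation and 0.230 FPKM (PSL-1) and 0.451 FPKM (PSL-2) under Pi supply. PDL-1 stood alone above the other libraries, and the groups overlapped. Gm19g145200 had 0.720 FPKM in PDL-1 and at most 0.114 FPKM in the other libraries, and Gm08g078900 was at 0 in 3 of 4 libraries.

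**Figure D4:**
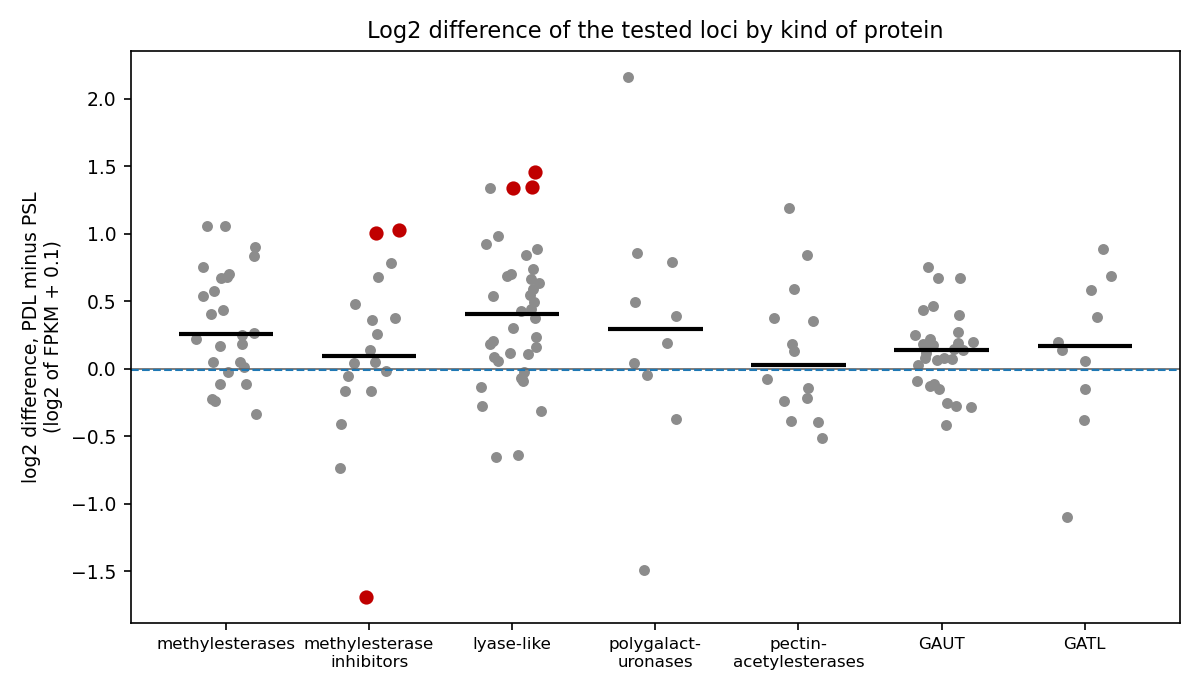
Log2 difference of each tested locus (points), PDL minus PSL of log2(FPKM + 0.1), by kind of protein, with the median of each kind (black bar), the median of all loci (dashed line, -0.01) and called loci in red. Gm07g131400, listed at 0 in PSL, and the 1 tested polygalacturonase-inhibiting protein are not drawn, and the lyase-like loci have the highest median (0.40).

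Pectin acetylesterases, 21 loci of 1 family, release acetyl groups from pectin. Of the 15 tested, 8 had a positive difference (53.3%, against 48.6% of all loci). Both PDL libraries stood above both PSL libraries in 5 (33.3%, against 20.2%) and below in 3 (20%, against 21.1%). Their median log2 difference was 0.13, or 0.03 without Gm07g131400.

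Gm07g131400 (chr7:15553151-15553576) was the exception, and the 1 locus of all classes with an adjusted p under 0.05. It was listed at 19.3 FPKM in PDL-1 and 33.1 FPKM in PDL-2 and at 0 in both PSL libraries, so no fold is given. The groups did not overlap, and limma gave an adjusted p = 0.038 on the log2 scale with the pseudocount. That limma adjusted p was 0.122 with a pseudocount of 1 and 0.051 with a pseudocount of 0.01. It was called in all 13 fits that could include it, with adjusted p from 0.036 to 0.508. The locus spans 426 bp and lies 3931 bp from Gm07g131300, a locus of the same family and of 428 bp. Gm07g131300 was listed at 1.34 FPKM in PDL-1, 2.84 FPKM in PSL-1 and 0 in PDL-2 and PSL-2, so zeros fell in both groups there. The table held other zeros beside high values. Of 75 loci at 0 in 2 libraries and at 10 FPKM or more in the other 2, 9 had both zeros in PSL, 12 both in PDL and 54 had 1 in each group. A value of 0 in FPKM can also be a failed estimate, and near-identical copies can share reads, so the level in the PSL libraries is given only as listed.

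The bulk of acetylesterase transcript came from 1 locus. Gm16g107300 (chr16:21774968-21781069) read 149.6 and 139.9 FPKM in PDL, 153.3 FPKM in PSL-1 and 106.0 FPKM in PSL-2. The groups overlapped and PSL-2 was the low library. Gm20g090500 had 19.2 and 17.8 FPKM in PDL and 18.6 and 20.6 FPKM in PSL, also with overlap. Gm01g151600 ran the other way from most pectin-related loci, with 13.8 and 13.7 FPKM in PDL and 16.4 and 16.1 FPKM in PSL. Its groups were tight and separate, at a log2 difference of -0.24 ± 0.11, and did not pass the p threshold. Both loci of the class that were higher by p alone and by less than the fold threshold were of middling level. Gm03g225400 had 13.2 and 14.5 FPKM in PDL and 10.6 and 7.84 FPKM in PSL (0.59 ± 0.19), and Gm10g139200 had 11.2 and 12.5 FPKM in PDL and 8.84 and 9.34 FPKM in PSL (0.38 ± 0.13), with adjusted p of 0.542 and 0.546.

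Seen by class, summed FPKM was higher in PDL in all 4, but as a share of the library pectin acetylesterases overlapped between groups. Methylesterases and inhibitors summed to 1186 and 1208 FPKM in PDL and to 953 and 901 FPKM in PSL, 1.29 times higher. Lyases and polygalacturonases summed to 445 and 543 FPKM in PDL and to 367 and 287 FPKM in PSL, 1.51 times higher. Pectin acetylesterases summed to 247 and 251 FPKM in PDL and to 229 and 181 FPKM in PSL, 1.21 times higher and 1.09 times higher without Gm07g131400. In this last class the values without Gm07g131400 overlapped, at 228 and 218 FPKM in PDL. In all, pectin-related loci took 0.128 and 0.142% of the summed FPKM of PDL-1 and PDL-2 and 0.123 and 0.0930% of that of PSL-1 and PSL-2, so the gap between PSL libraries was wider than that between PSL-1 and PDL-1.

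The loci were spread over all 20 chromosomes. Neighbouring loci within 30 kb formed 20 pairs of 37 loci, and in all 20 pairs both belonged to the same class. The coordinates of 8 loci overlapped another locus, among them none of those called. Reads of overlapping loci cannot be told apart here, since no strand-specific counting is stated, and reads were allowed to map to many places, so values of close copies are uncertain too.

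Genes that act around pectin were counted for comparison by descriptions. Enzymes that supply UDP-galacturonate held 25 loci, of which 19 were tested, with a median log2 difference of 0.29. In 10 both PDL libraries stood above both PSL libraries (52.6%, against 20.2% of all loci), and 1 was called higher (against 1.14%). The call was Gm19g002700, a glucuronokinase, at 1.05 and 0.884 FPKM in PDL and listed at 0 in both PSL libraries. More abundant were Gm05g152300, a UDP-D-glucuronate 4-epimerase that makes UDP-galacturonate itself, with 71.7 and 80.1 FPKM in PDL and 50.4 and 46.5 FPKM in PSL (0.65 ± 0.12, adjusted p = 0.471), and Gm07g126600, a myo-inositol oxygenase, with 37.4 and 31.6 FPKM in PDL and 17.8 and 21.8 FPKM in PSL (0.80 ± 0.16, adjusted p = 0.471). Both were separate between groups and under the fold threshold.

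Wall-associated kinases, receptors known in Arabidopsis to bind pectin, lay on the other side. Of 17 loci 9 were tested, 0 had a positive difference (against 48.6% of all loci), and the median was -0.35. In 6 both PDL libraries stood below both PSL libraries (66.7%, against 21.1%). None was called, and 2 were lower by p alone. Gm09g014900 had 11.6 and 9.83 FPKM in PDL and 18.6 and 20.1 FPKM in PSL, at -0.85 ± 0.14 (adjusted p = 0.470). Gm09g027900 had 4.81 and 4.80 FPKM in PDL and 7.68 and 6.70 FPKM in PSL, at -0.57 ± 0.14 (adjusted p = 0.511). The groups were separate in both.

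Beta-galactosidases and arabinofuranosidases, families with enzymes that trim pectin side chains, had a median of 0.07. Their descriptions do not name pectin. Of 16 tested loci 2 were called higher (against 1.14% of all loci), both described as beta-galactosidase 3, and 0 lower. Gm11g073100 read 1.87 and 2.27 FPKM in PDL and 0.842 and 0.655 FPKM in PSL (1.35 ± 0.29, adjusted p = 0.480). Gm01g170200 read 8.87 and 13.6 FPKM in PDL and 6.79 and 2.99 FPKM in PSL (1.26 ± 0.47, adjusted p = 0.560), in the order of libraries named above. Of 18 loci for rhamnose synthesis or rhamnogalacturonan cleavage, 7 were tested and none was called, with a median of 0.10. The 1 locus of methylesterase PCR A, whose description lacks the word pectin, was not tested.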

How the data were processed

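RNA-seq of 4 leaf libraries was analysed from the deposited table. Reads had been quality-filtered (FASTX-toolkit, FastQC) and aligned by TopHat to a Bowtie2 index of Gmax2.0, and the authors made the FPKM of each locus per library with Cufflinks and Cuffdiff; versions are not given in the sources used here. FPKM are normalized estimates, so counting error per locus is unknown. The table's comparison columns (pooled FPKM, log2 fold change, test statistic, p and q) were not used. Gene names are shortened, Gm07g131400 standing for Glyma.07G131400. Starts were read as counted from 0 and raised by 1, since the spans of 32 of 36 GATL and inhibitor loci were then multiples of 3.

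Loci with a mean of at least 0.3 FPKM (32686) were fitted with limma 3.58.1 in R 4.3.3 on log2(FPKM + 0.1), with eBayes and a mean-variance trend, two-sided and without covariates, and p was adjusted by Benjamini-Hochberg over all of them. A set of 50 simulated loci at each log2 difference of 1.5, 2, 3 and 4 gave 48, 50, 47 and 48 calls. Smaller differences, such as those of Gm03g103400 (1.01) and Gm18g116400 (1.46), were not tested in this way. Pectin-related loci, with a median log2 SD of 0.32 against 0.20 for all loci, were not tested in this way on their own. The 34 pectin-related loci with a mean from 0.3 to under 1 FPKM were not either. The counts cover only loci that were given a difference, and calls among the other loci are not given here. Tables and plots used Python 3.11.15, numpy 2.4.6, pandas 2.3.3 and matplotlib 3.10.9. The alternatives were other pseudocounts, filters, scalings and variance priors, a block for replicate number, and leaving out each library.

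Members, classes and lists were chosen with earlier results of these data known. Named loci were every called one, the 3 most abundant of each class and kind, and those at 0 in both libraries of 1 group; the other loci named were chosen after their values were seen. Of 59048 reference genes 0 matched the members by name, so no sequence is shown.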

Additional observations from a re-analysis of the deposited data

How the results depend on the processing

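With 1 library left out, the loci called higher numbered from 2 (without PSL-2) to 15 (without PSL-1), those called lower from 1 to 3, and the median log2 difference ranged from 0.18 to 0.31. The other settings gave 4 to 8 higher loci and 1 lower, except 0 lower with a pseudocount of 1. In counts added after the data were seen, both PDL libraries, or the one kept, stood above PSL in 73 to 88 of 148 loci (against 33.4 to 35.1% of all loci) and below in 18 to 30 (against 34.2 to 37.6%) with 1 library left out. A replicate block gave 6 loci higher, 1 lower and a median of 0.19; deviations of same-numbered libraries correlated at -0.08 over all loci, so the numbers were not taken as pairs. Of 390 values for 28 named loci, 370 kept their direction and side of the thresholds, 15 lost the call, 1 gained it and 4 turned. Over the fits without 1 library, Gm08g079100 ranged from -0.29 (without PDL-1) to 1.49, Gm16g107300 from -0.083 (without PSL-2) to 0.45, Gm17g003900 from -0.015 (without PSL-1) to 0.17 and Gm12g004600 from -0.26 to 0.14 (without PDL-2). Causes were not tested. Where leaving out a library left 1 in a group, that library was assumed to vary like the other group. Depth limits loci under 1 FPKM most.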
